A study of Caenorhabditis elegans with 34 samples.

Results

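The 200 rows described here were strongly enriched in embryonic GFP-positive cells and had at least 3-fold lower mean levels, with 10 added, in the same sorted cells of larvae. They were selected on their normalized counts in sorted cells, from 16762 rows of a table of Caenorhabditis elegans. Enrichment at a stage is log2 of the GFP-positive mean plus 10 over the GFP-negative mean plus 10, with each mean taken over replicate libraries. A row had to reach a mean of 100 normalized counts in embryonic GFP-positive cells, an enrichment of 2 in the embryo, and an enrichment above -1 in first-stage (L1) and third-stage (L3) larvae. In all 1544 rows met these conditions, and the 200 with the largest ratio of the embryonic GFP-positive mean to the larger of the L1 and L3 GFP-positive means were kept, each mean plus 10. The other 1344 rows serve as a comparison, as do all rows. Members are numbered by that ratio, from rank 1 for the largest.

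The animals were of strain JM149, which carries the integrated transgene caIs71 in every group. In it the elt-2 promoter (elt-2p) drives GFP fused to the histone HIS-2B, with the unc-54 3'UTR, in intestinal nuclei, together with rol-6(su1006), a marker that makes animals roll, so sorted cells and all comparators share both. No wild-type animals without the transgene were compared. At each of 3 stages (mixed embryos, L1 and L3) 4 fractions were profiled: sorted GFP-positive cells, sorted GFP-negative cells, dissociated unsorted cells and whole animals. Polyadenylated RNA of 30 libraries, labelled as biological replicates, gave 3 libraries in each L3 group and each sorted embryo group, and 2 in every other group. L1 replicate 2, with 4 libraries, was not analysed here. Embryos were dissociated with chitinase and pronase E and a needle, and larvae with SDS and DTT, pronase E and a dounce pestle, so stage and dissociation method cannot be told apart in dissociated and sorted cells. Library totals spanned 20252498 to 49400873 counts in embryos, 14608535 to 49077624 in L1, and 10994387 to 26523420 in L3. L1 replicate 1 was sequenced on another instrument (HiSeq X-ten) than all other libraries (NovaSeq).

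The worm intestine is an endodermal tube descended from a founder cell of the early embryo. GATA transcription factors specify it, and ELT-2, expressed from the early endoderm onward, is a main regulator of intestinal genes through adult life. Embryonic intestinal cells divide, polarize and form a lumen before hatching, and larval intestinal cells then feed, digest and store nutrients. The tables carry no gene identifier, so no row can be named as a gene, no marker of intestine or of another tissue could be looked up, and no sequence can be shown. Row numbers are given for 4 members only.

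In embryonic GFP-positive cells the members had a median of 2683 normalized counts, with a range of 115 to 2040431. Their median was 349 in L1 GFP-positive cells and 276 in L3 GFP-positive cells. The other rows that met the conditions did not share this course, with medians of 869, 1851 and 973 in embryo, L1 and L3. The rule chose the members for that contrast, so these levels are a description. Of the 200 members, 142 reached 1000 normalized counts in embryonic GFP-positive cells, 58 in L1 and 52 in L3. Means under 10 were found for 15 members in L1, for 26 in L3 and for 12 at both stages.

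**Figure D1:**
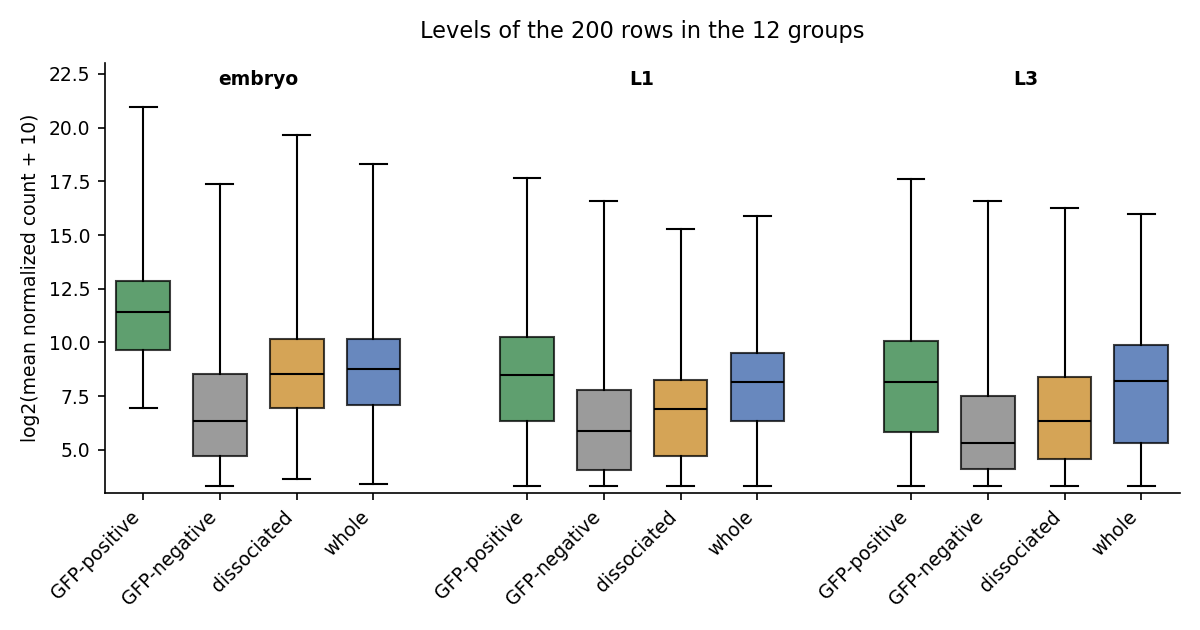
Mean normalized count plus 10, on a log2 axis, of the 200 rows in each of 12 groups of stage and fraction (n = 2 or 3 libraries per group). Boxes span the quartiles with the median as a line, and whiskers reach the lowest and highest row. The median is highest in embryonic GFP-positive cells, at 2683 normalized counts, and stands at 349 in L1 and 276 in L3 GFP-positive cells.

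The ratio that ranked the members fell off steeply. It was 1258 for rank 1, 85.6 for rank 2, 55.0 for rank 3, 52.1 for rank 4 and 39.4 for rank 5. The last members, up to rank 200, had ratios of 3.04 and 3.02, and the first rows outside had 3.011 and 3.009, so the lower limit divides rows of nearly equal ratio. With 10 added to each mean, the median over members of the ratio of the embryonic to the larval mean was 6.49 for L1 and 7.79 for L3. Every embryonic GFP-positive library lay above every L1 one in 192 members, against 25.8% of all rows, and above every L3 one in 190 members, against 27.8% of all rows. The rule used both contrasts. On the deposited rlog scale, a shrunken log2 count, all 200 members had a lower mean in L1 and in L3 GFP-positive cells than in embryonic ones, with median differences of -2.46 and -2.86.

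**Figure D2:**
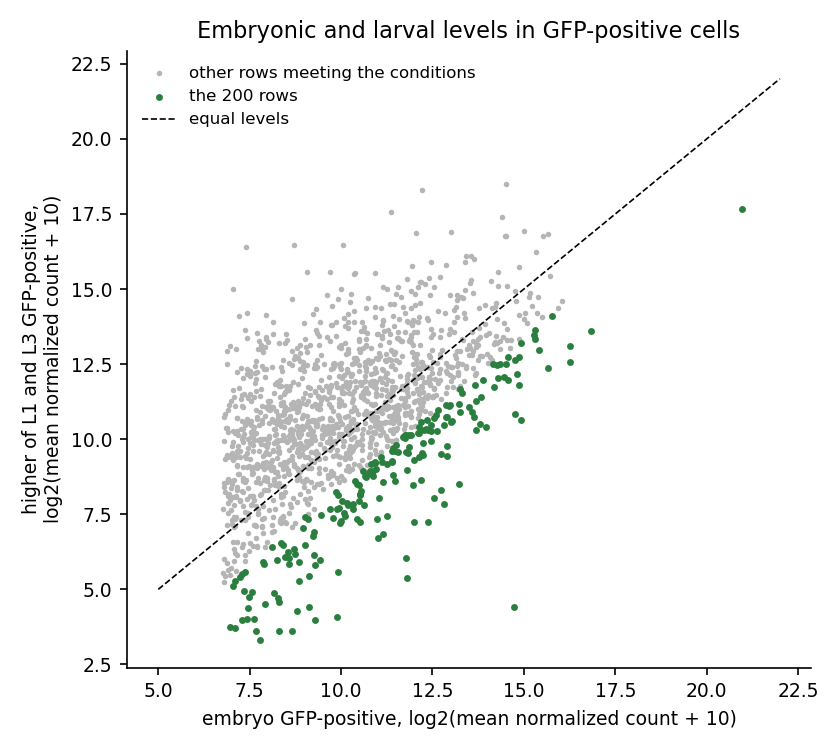
Mean level in embryonic GFP-positive cells (x axis) against the higher of the L1 and L3 GFP-positive means (y axis), both as log2(mean normalized count + 10), for the 1544 rows that met the conditions. Green points are the 200 members, grey points the other 1344 rows, and the dashed line marks equal levels. The members form the lower right edge, and rank 1 lies far below the rest with a ratio of 1258.

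The member of rank 1 (row 11182) went nearly silent in larval sorted cells. Its embryonic GFP-positive libraries had 21908, 20648 and 38382 normalized counts, its L1 libraries 12.5 and 10.4, and its L3 libraries 1.36, 17.7 and 0. In the embryo it was also present outside the GFP-positive gate, with 2649, 2488 and 1781 in GFP-negative cells. The member of rank 2 had 3063, 2836 and 4690 in embryonic GFP-positive cells, 41.8 and 20.9 in L1 and 4.07, 19.9 and 28.4 in L3. In L3 its GFP-negative libraries, at 33.9, 59.6 and 30.5, stood above every GFP-positive one, whereas in the embryo they were lower, at 159, 585 and 446. Rank 4 kept its enrichment at a low level. It had 2294, 3278 and 4829 in embryonic GFP-positive cells, 57.9 and 55.7 in L1 and 31.2, 26.5 and 79.5 in L3, while no larval GFP-negative library exceeded 4.34. Rank 5 had 591, 635 and 603 in embryonic GFP-positive cells and at most 6.23 in any larval GFP-positive library. Rank 3 had 866, 1121 and 804 in embryonic GFP-positive cells and at most 12.5 in any larval one.

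The 3 members with the highest embryonic GFP-positive means, ranks 42, 47 and 50, were far higher in replicate 1 than in the other replicates. Rank 42 had 5369317, 429730 and 322247 normalized counts in embryonic GFP-positive cells, 109377 and 305796 in L1 and 152063, 144631 and 302482 in L3. Its replicate 1 was 12.5 times the next embryonic library, and replicate 3 exceeded the highest larval library by little. Rank 47 had 310614, 21006 and 20735 in embryonic GFP-positive cells and rank 50 had 203253, 16472 and 16365. By the mean without replicate 1, rank 42 was still in place 1 among the members, and ranks 47 and 50 were in places 18 and 27. Rank 25, singled out after its values were seen, was the fourth most abundant and had the same pattern, and the 4 rows lie within 6 consecutive rows of the table. Reads of near-identical genes could be split between rows, and the counting options are not given in the sources used here. The 4 rows held 16.4%, 1.79% and 1.22% of all counts in the embryonic GFP-positive libraries, and 6.07% and 0.861% in the dissociated embryo libraries of replicates 1 and 2. Summed, the other 196 members held similar shares in these replicates, at 3.82%, 3.71% and 4.49% of counts in embryonic GFP-positive cells.

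**Figure D3:**
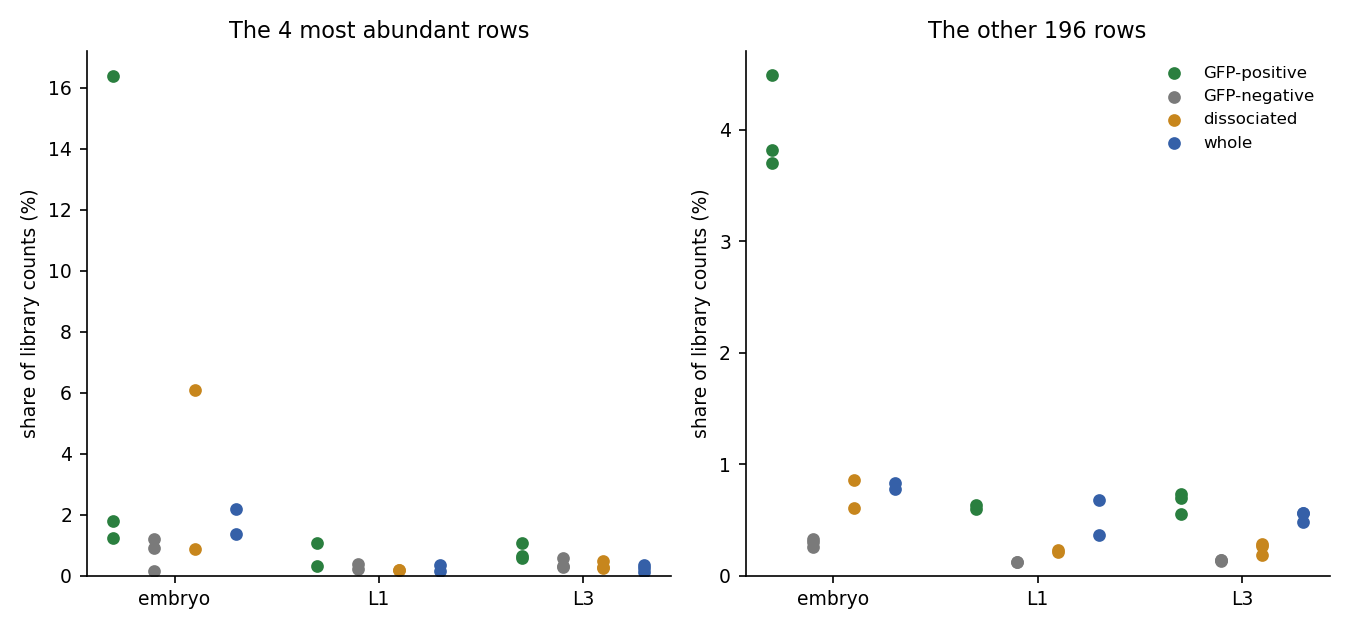
Share of all counts in a library (%) held by the 4 most abundant members (left) and by the other 196 (right), by stage, with 1 point per library coloured by fraction. On the left, embryonic GFP-positive replicate 1 stands at 16.4% and the other replicates at 1.79% and 1.22%, whereas on the right the 3 embryonic GFP-positive libraries lie between 3.71% and 4.49%, above every other library.

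Those 196 members held 4.01% ± 0.425 of counts in embryonic GFP-positive cells (SD, n = 3), 0.616% ± 0.0230 in L1 (SD, n = 2) and 0.660% ± 0.0927 in L3 (SD, n = 3). In whole animals they held 0.804% ± 0.0338 in embryos (SD, n = 2), 0.523% ± 0.223 in L1 (SD, n = 2) and 0.537% ± 0.0465 in L3 (SD, n = 3). The rule chose the members for lower larval levels in sorted cells, so the sorted shares, and their wider gap between stages than in whole animals, follow from the choice. In whole animals, which the rule did not use, every L3 library lay below both embryo libraries, and so did both L1 libraries, at 0.365% and 0.680%, against 0.828% and 0.780% in embryos.

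Among all 200 members, 19 were over 3-fold higher in embryonic GFP-positive replicate 1 than in either other replicate, and 4 were so in replicate 3. Of the other 1344 rows that met the conditions, 158 and 9 were, so this was not particular to the members. The typical member varied less than those 19 and 4: the highest embryonic GFP-positive library was 1.95 times the lowest in the median, and 107 members lay within 2-fold. Without replicate 1 the rule kept 167 of the 200. In all, 114 members were chosen whichever sorted library was left out. With the 200 rows that the rule takes without embryonic GFP-positive replicate 1, the numbers called below changed little: 65 were lower in whole L3 and 60 in whole L1 than in whole embryos.

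Enrichment in GFP-positive cells persisted in most members at the lower larval level, but less than in the other rows that met the conditions. Every GFP-positive library lay above every GFP-negative one in 193 members in the embryo, against 21.0% of all rows. This held for 147 members in L1, against 28.2% of all rows, and for 141 in L3, against 27.0%. It held for a larger share of the other 1344 rows that met the conditions, with 1165 in L1 and 1200 in L3. The median enrichment was 4.33 in the embryo, 1.74 in L1 and 1.90 in L3 on the log2 scale. For those other rows it was 3.90, 3.51 and 2.85. The rule required the embryonic enrichment, allowed larval values down to -1 and chose members for lower larval GFP-positive levels. These counts and medians therefore carry no test. An enrichment of 2 or more was kept at both larval stages by 72 members, and 35 members had less than 1 at both. Those 72 had median GFP-positive levels of 5141, 1117 and 660 normalized counts in embryo, L1 and L3, and the 35 had 393, 19.5 and 9.4. With 10 added to each mean, a GFP-positive mean under 10 gives an enrichment under 1 whatever the GFP-negative level. The L3 median of the 35 was under 10, so for such members less than 1 cannot be read as lost enrichment. In GFP-negative cells the members' median log2 difference from the embryo was -0.46 in L1 and -0.63 in L3. For the other rows that met the conditions it was 1.42 and 0.95.

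Between L1 and L3 GFP-positive cells the means of 129 members were within 2-fold, 46 were over 2-fold lower in L3 than in L1, and 25 were over 2-fold higher. The constant of the rule was added to each mean, which brings members near 0 at both stages within 2-fold. Of 16758 rows, 2840 were over 2-fold lower in L3 and 3761 over 2-fold higher. Most rows thus lay within 2-fold as well, so the count of 129 was not particular to the members. Every L3 library lay below every L1 library in 61 members, against 27.4% of all rows, and above in 26 members, against 23.2%. The highest larval levels belonged to ranks 42 and 191 at both stages. Rank 191 had 75053, 38503 and 54255 normalized counts in embryonic GFP-positive cells, 25712 and 9696 in L1 and 14550, 22443 and 12746 in L3. Its 3 embryonic libraries stood above all larval ones, and no GFP-negative library of any stage exceeded 477.

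Whole animals and dissociated unsorted cells had no part in choosing the members, so the stage contrast was tested in them, with edgeR's quasi-likelihood F-test adjusted by Benjamini-Hochberg over 16758 rows and called at an adjusted p under 0.05. All 200 members were tested. In whole L1 against whole embryos, 60 members were lower, where 26.2% of all rows were, and 3 were higher, where 26.3% were. In whole L3 against whole embryos, 72 were lower, where 28.7% of all rows were, and 11 were higher, where 26.1% were. The share of members called lower (30% and 36%) was thus not far from that of all rows, and the share called higher was well under it. Median log2 fold changes of the members were -0.91 in L1 and -0.80 in L3, beside 0.19 and -0.02 for all rows and 1.69 and 1.70 for the other rows that met the conditions. By the rule those other rows had smaller ratios of embryonic to larval GFP-positive mean, so they are not a neutral background. Libraries of bulk tissue cannot tell a lower level in intestinal cells from a lower level elsewhere or a smaller share of intestinal RNA. None of these was tested. In all, 102 of the 200 members were lower in at least 1 larval stage, where 35.2% of all rows were, and 30 in both, where 19.7% were. At least 1 stage was higher in 13 members, where 33.6% of all rows were, and 87 were called in neither, where 31.7% were.

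These counts depended on the libraries. Without whole L1 replicate 1 the number lower in whole L1 was 36, and without whole embryo replicate 2, whole embryo replicate 3 or whole L3 replicate 1 the number lower in whole L3 was 43, 47 or 42. The number higher in whole L1 was 1, 0 or 1 without whole embryo replicate 2, whole embryo replicate 3 or whole L1 replicate 1, and the number higher in whole L3 was 6 without whole embryo replicate 2 and 3 without whole embryo replicate 3. Scaling by RLE in place of TMM moved the median of all rows in whole L1 to 0.55, with 43 members lower and 9 higher. In whole L3 it moved that median to 0.18, with 62 members lower and 15 higher. Library totals alone put the median at 0.33 in whole L1, with 49 members lower and 6 higher. In whole L3 they put it at -0.35, with 92 lower and 8 higher. The whole L1 replicates also differed from each other: 58 members, or 29%, were over 2-fold higher in replicate 3 than in replicate 1, against 14.2% of all rows. The part of that difference, and of the instrument that differs with it, in the result was not tested.

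**Figure D4:**
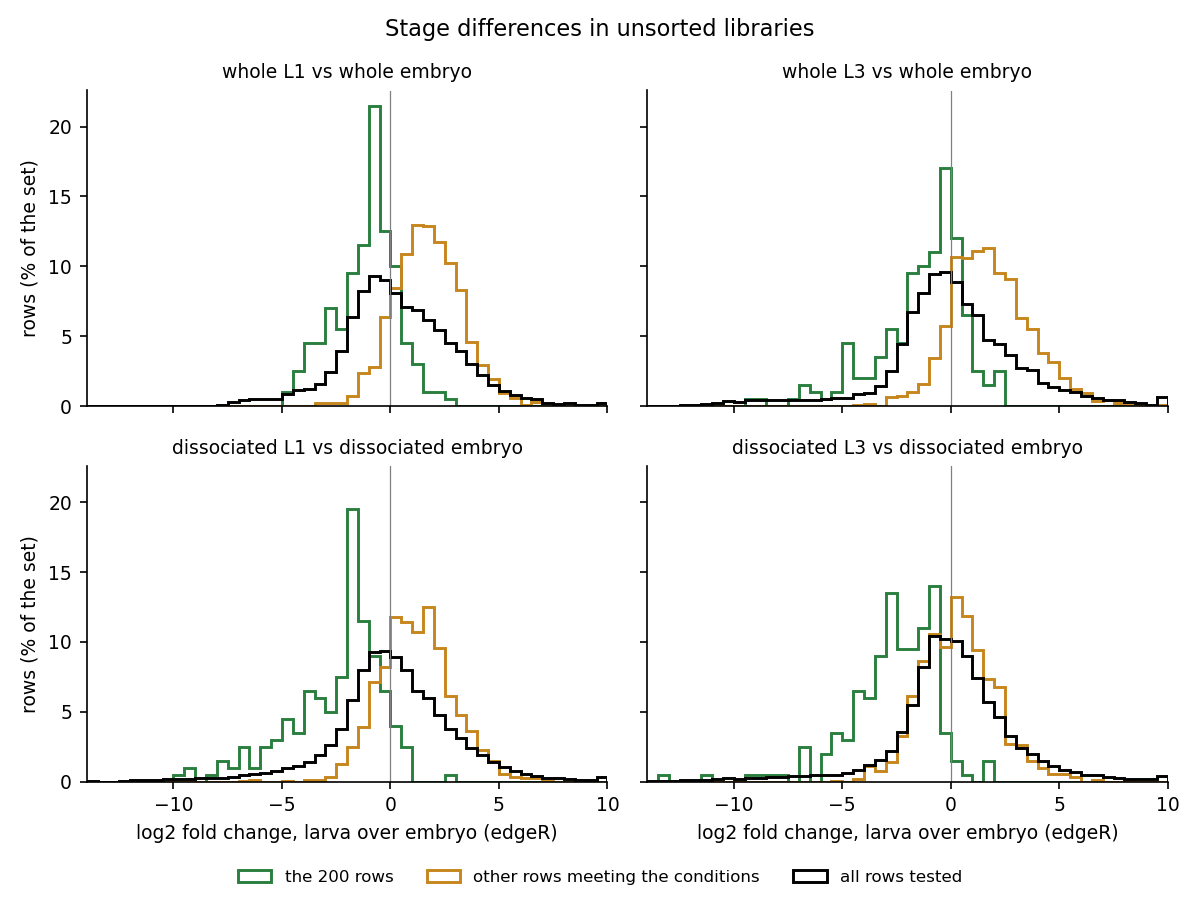
Distribution of edgeR log2 fold changes of larvae over embryos in whole animals (top) and dissociated unsorted cells (bottom), for L1 (left) and L3 (right). Lines show the share (%) of the 200 members (green), of the other 1344 rows that met the conditions (orange) and of all 16758 rows tested (black), and values beyond the axis are put in the outermost bins. Most members lie left of 0, with a median of -0.91 and -0.80 in whole animals and -1.94 and -2.36 in dissociated cells, whereas the orange medians are above 0 in all 4 panels. The rule left the orange rows out for smaller ratios of embryonic to larval GFP-positive mean, so they are not a neutral background.

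The largest decreases in whole L1 belonged to ranks 52 and 5. Rank 52 was scarce, with 0 and 2.00 normalized counts in whole L1 and 7.84 and 36.9 in whole embryos. Its log2 fold change was -4.93 ± 1.46 (SE, edgeR, adjusted p = 0.00779), and the call was lost without whole embryo replicate 3 or whole L1 replicate 1. Rank 5 had 2.80 and 24.0 in whole L1 and 265 and 303 in whole embryos, with no overlap (-4.82 ± 0.89, SE, edgeR adjusted p = 0.000169). Rank 151 had 148 and 156 in whole L1, above its 30.2 and 37.6 in whole embryos (1.80 ± 0.67, SE, edgeR adjusted p = 0.0284), and this call was lost whichever whole L1 or whole embryo library was left out, with a replicate block (1.63, edgeR adjusted p = 0.0537) and with the compared groups only (edgeR adjusted p = 0.0562). Rank 11 was called higher as well (2.83 ± 1.16, SE, edgeR adjusted p = 0.0468), on only 10.1 and 2.00 in whole L1 and 0.560 and 0.659 in whole embryos, and without whole L1 replicate 1 or either whole embryo library, or with a replicate block (2.58, edgeR adjusted p = 0.0976), it was not called.

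In whole L3 the member of rank 1 had 1.60, 1.18 and 15.6 normalized counts, against 3034 and 4193 in whole embryos. Its log2 fold change was -9.38 ± 0.99 (SE, edgeR adjusted p = 1.61e-07). In whole L1 it differed widely between libraries, with 185 in replicate 1 and 2516 in replicate 3, and it was not called there (-1.81 ± 0.79, SE, edgeR adjusted p = 0.0597). It was called with a replicate block (-2.04, edgeR adjusted p = 0.029) and without whole L1 replicate 3 (-4.63, edgeR adjusted p = 0.000471). Both values exceeded its level in L1 GFP-positive, GFP-negative and dissociated cells, where no library passed 12.7. The same contrast within L1 was seen for rank 3, with 200 and 1204 in whole L1 and at most 12.7 in any other L1 library. In all, 5 members had a whole L1 mean over 5 times that of each other L1 group, as had 4.78% of all rows.

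The member of rank 24 (row 9770) was not detected in any L3 library of any fraction. It had 80.1 and 29.0 normalized counts in whole embryos and 42.1 and 127 in whole L1, and 272, 325 and 311 in embryonic GFP-positive cells. Against a floor of 3 counts over the 3 whole L3 libraries together, it was at least 39.6-fold lower in whole L3 than the mean of whole embryos (edgeR adjusted p = 0.000125), and at least 21.1-fold lower than whole embryo replicate 3 alone. Floors and intervals of this kind cover counting error only. Rank 2 was also lower in whole L3, with 4.81, 11.8 and 21.3 against 1716 and 1293 in whole embryos (-7.04 ± 0.78, SE, edgeR adjusted p = 2.57e-07).

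The 11 members higher in whole L3 had, as the rule required of all members, lower levels in L3 than in embryonic GFP-positive cells. The member of rank 94 (row 866) had 244, 249 and 366 normalized counts in whole L3 and 48.7 and 46.8 in whole embryos, a log2 fold change of 2.40 ± 0.83 (SE, edgeR adjusted p = 0.0178). Its GFP-positive libraries ran the other way, at 231, 144 and 68.1 in L3 and 795, 803 and 1023 in the embryo. The call was lost without either whole embryo library. The member of rank 143 (row 14670) had 468, 671 and 393 in whole L3 and 104.2 and 71.2 in whole embryos (2.35 ± 0.48, SE, edgeR adjusted p = 0.000305). Its GFP-negative libraries were higher in L3 as well, at 113, 152 and 176 against 29.0, 17.3 and 9.80 in the embryo. Rank 191 had 11425, 11287 and 15101 in whole L3 and 2564 and 2287 in whole embryos (2.20 ± 0.46, SE, edgeR adjusted p = 0.000361), with no such level in L3 GFP-negative cells. Rank 138 had 10918, 9263 and 6772 in whole L3 and 2442 and 715 in whole embryos (2.33 ± 0.66, SE, edgeR adjusted p = 0.00479), and was not called without whole embryo replicate 3 (1.72, edgeR adjusted p = 0.0947). With 10 added to each mean, ranks 138, 143 and 191 had the largest ratios of whole L3 to whole embryo level among the members, at 5.66, 5.33 and 5.18. Without that constant rank 94 came first, before ranks 143, 138 and 191 at 5.83, 5.69 and 5.20.

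**Figure D5:**
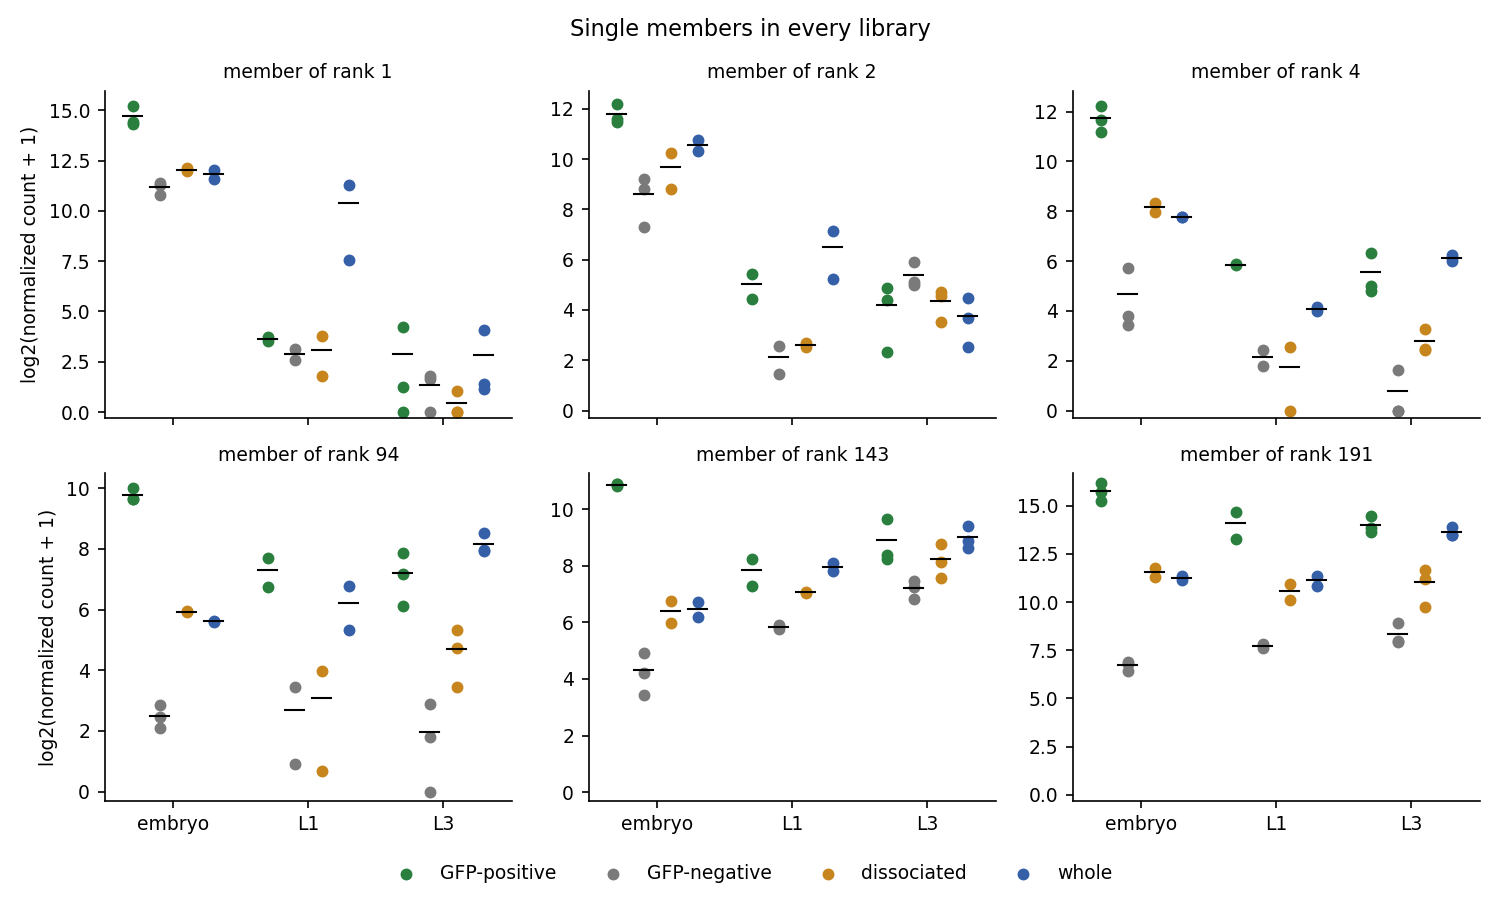
Normalized counts plus 1, on a log2 axis, of 6 members in every library, by stage and fraction; points are libraries and lines the mean of each group. Ranks 1, 2 and 4 are low in all L3 fractions compared with the same fractions of the embryo, whereas ranks 94, 143 and 191 are lower in L3 than in embryonic GFP-positive cells and higher in whole L3 than in whole embryos.

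Dissociated unsorted cells gave the stage contrast for more members. In dissociated L1 against dissociated embryos, 132 members were lower, where 25.9% of all rows were, and none was higher, where 23.4% were (edgeR; of the members 143 passed an unadjusted p of 0.05 in either direction, and DESeq2 called 1 higher). In dissociated L3 against dissociated embryos, 145 were lower, where 26.2% of all rows were, and 2 were higher, where 22.5% were. Median log2 fold changes of the members were -1.94 in L1 and -2.36 in L3, beside 0.06 and 0.05 for all rows. The other rows that met the conditions had medians of 1.15 and 0.33. Both larval stages were lower in 114 of the 200 members, where 19.2% of all rows were. In all 4 stage contrasts with the embryo, whole and dissociated, 26 members were lower, where 13.6% of all rows were, and these contrasts share their embryo libraries. Without dissociated L1 replicate 1 the number lower in dissociated L1 was 85. Dissociated cells went into the sort, so they share their source and dissociation method with the sorted cells that chose the members.

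Some members were lower in dissociated cells than in whole animals at the larval stages. In dissociated against whole embryos, no member was called by edgeR, where 0.131% of all rows were higher and 0.412% lower, 5 members passed an unadjusted p of 0.05, and DESeq2 called 1 lower. In L1, 37 members were lower in dissociated cells than in whole animals, where 6.65% of all rows were, and 1 was higher, where 3.15% were. In L3, 87 were lower, where 11.5% of all rows were, and 1 was higher, where 7.85% were. Median log2 fold changes were 0.01 in embryos, -1.09 in L1 and -1.40 in L3. The other rows that met the conditions had a similar median in L3, at -1.59, so the L3 value was shared with rows enriched in the embryonic sort but not chosen for a lower larval level. The L1 count was not stable. With the compared groups only, no member was called lower in L1 by edgeR, whereas DESeq2 called 67 and 82 passed an unadjusted p of 0.05 in either direction in the fit of all libraries. For L1 the number lower was 2, 18 and 3 without dissociated L1 replicate 1, dissociated L1 replicate 3 and whole L1 replicate 3, and for L3 the single higher member was lost without whole L3 replicate 2, dissociated L3 replicate 2 or whole L3 replicate 3.

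The difference between stages in the effect of dissociation was tested directly. It passed the threshold in 33 members for L3 minus embryo, where 3.90% of all rows did. For L1 minus embryo 9 members passed, where 3.44% of all rows did. Each of these members had the more negative effect in larvae. In that direction alone 2.82% of all rows passed for L3 and 2.03% for L1. Of the other rows that met the conditions, 20.0% passed in that direction for L3 and 0.744% for L1, so the L3 result was not particular to the members. Leaving out single libraries gave 4 to 30 members for L3 and 0 to 24 for L1. For L3 the number was 4 and 6 without whole embryo replicates 2 and 3, and 15 to 20 without either dissociated embryo library, any whole L3 library or dissociated L3 replicate 1. For L1 it was 0 without dissociated L1 replicate 1 or whole L1 replicate 3, 1 without either whole embryo library, 3 and 4 without dissociated embryo replicate 1 and dissociated L1 replicate 3, and 24 without whole L1 replicate 1. The L1 count is near the background. Rank 191 had 859, 3194 and 2313 normalized counts in dissociated L3 and 11425, 11287 and 15101 in whole L3 (-2.57 ± 0.40, SE, edgeR adjusted p = 0.000119). Its dissociated and whole embryo libraries were close, at 3496 and 2545 against 2564 and 2287. Of the 72 members that kept an enrichment of 2 or more at both larval stages, 56 were lower in dissociated than in whole L3. Of the 35 with less than 1 at both, 3 were. The shares were 11.5% of all rows and 51.2% of the other rows that met the conditions. Median levels in whole and dissociated L3 were 423 and 97.5 normalized counts for the 72. For the 35 they were 6.13 and 6.68, where members not called cannot be read as unchanged. The share over all rows of similar larval enrichment was not computed. These subsets were formed after the values were seen, and their difference was not tested.

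Between the larval stages the members moved in both directions. In whole L3 against whole L1, 26 members were higher, where 12.4% of all rows were, and 22 were lower, where 12.5% were. Scaling by library totals alone turned this to 16 higher and 34 lower. In dissociated L3 against dissociated L1, 20 were higher, where 8.96% of all rows were, and 19 were lower, where 7.61% were. These shares are near the background. Without dissociated L1 replicate 1 no member was called higher in dissociated L3 and 10 were lower, without dissociated L1 replicate 3 there were 8 and 10, without dissociated L3 replicate 3 there were 10 higher, and without dissociated L3 replicate 1 there were 9 lower. In whole animals, leaving out single libraries gave 17 to 22 higher and 11 to 16 lower, with 17 higher without whole L1 replicate 1 and 11, 12, 14 and 14 lower without whole L1 replicate 3 and whole L3 replicates 1, 2 and 3. The 46 members over 2-fold lower in L3 than in L1 GFP-positive cells included 14 that were lower in whole L3 than in whole L1, where 19.5% of all such rows were, and none that was higher, where 1.55% were. The 25 members over 2-fold higher in L3 GFP-positive cells included 6 that were higher in whole L3, where 13.8% of all such rows were, and none that was lower, where 6.46% were. The rule limited the larval GFP-positive levels of the members, and the difference between members and other such rows was not tested.

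Whole L3 calls were also counted by embryonic GFP-positive level, a measure the rule used, with no test of the difference between the subsets. Of 58 members under 1000 normalized counts in embryonic GFP-positive cells, 32 were lower in whole L3 than in whole embryos, where 23.3% of all rows at such levels were, and their median change was -2.48 on the log2 scale. Of the 142 members at 1000 or more, 40 were lower, where 42.7% of all rows at such levels were, with a median change of -0.47. The members of ranks 1 and 2, both above 1000, had larger decreases than either median. The 12 members with a mean under 10 in both larval GFP-positive groups had median levels of 200 in embryonic GFP-positive cells, 21.7 in whole embryos, 6.70 in whole L1 and 1.24 in whole L3. Of these 12, 7 were lower in whole L3 than in whole embryos, where 28.7% of all rows were. The share of all rows with such low larval levels was not computed, so no conclusion is drawn from this count. In the whole-animal means, 114 members had their highest value in embryos, 40 in L1 and 46 in L3. Shares over all rows were not computed for these counts, so they carry no conclusion about the members.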

How the data were processed

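Per the labels' protocols, RNA was extracted with a miRNeasy kit and libraries were made with NEBNext Ultra II from poly(A) RNA. Named without role or order in the submitters' processing notes are DESeq2 1.28.1, deepTools 3.2.0, featureCounts 1.6.4, SAMtools 1.9, HISAT2 2.1.0, fastp 0.20.0 and build ce11. The authors deposited raw counts per row, a normalized signal equal to those counts times 1 constant per library (largest relative deviation 4.97e-07), and rlog values on a log2 scale. The rule used the normalized signal. Stage and dissociation contrasts were tested on raw counts in R 4.3.3 with edgeR 4.0.16: filterByExpr with a minimum count of 10, TMM, and 1 quasi-likelihood model of all 30 libraries with 1 mean per group (18 residual degrees of freedom), two-sided. The procedure was tested on simulated data. p-values measure the spread between libraries labelled as biological replicates. DESeq2 1.42.0, other scalings, no filter, fewer libraries, each library left out and a replicate block were alternatives. The members, lists and tests were chosen with earlier results of these data known. Single members named are ranks 1 to 5, those at the limit of the rule, the 3 most abundant, the 2 highest and 2 lowest called per larval stage in whole animals, the 3 with the largest whole L3 to whole embryo ratio and the 2 highest in each larval GFP-positive group. Gene lists planned for named genes could not be applied, since the rows carry no identifiers.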

Additional observations from a re-analysis of the deposited data

Results flagged for a closer look

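The difference between stages in the effect of dissociation was tested directly, member by member. For L3 minus embryo, 33 members passed the threshold (edgeR), where 3.90% of all rows did, all with the more negative effect in L3 and a median log2 difference over the 200 members of -1.33, beside -1.57 for the other rows that met the conditions and 0.05 for all rows. For L1 minus embryo, 9 members passed, where 3.44% of all rows did, so that the members' share was near that of all rows. All 9 had the more negative effect in L1, with a median over the 200 members of -1.15, beside -0.50 and -0.09. Of the other rows that met the conditions, 20.0% passed with the more negative effect for L3, where 2.82% of all rows did. For L1 these shares were 0.744% and 2.03%. For L3, 4 and 6 members passed without whole embryo replicates 2 and 3. No member passed for L1 without dissociated L1 replicate 1 or without whole L1 replicate 3.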

How the results depend on the processing

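Among alternatives that left out no single replicate, counts of members stayed within 1.5 times in 145 of 173 combinations of count and alternative. The counts are of members called or, for changes of the rule, of members kept. When single libraries were left out, 72 combinations stayed within 1.5 times and 46 did not. None of the fold changes printed for single members changed sign. Under the alternatives that left out no single replicate, fold changes of single members kept their side of the threshold in 87 combinations. In 6 the call was lost and in 1 it was gained. With single libraries left out, these numbers were 48, 12 and 1. Without the HiSeq X-ten libraries ranks 52, 11 and 151 were not called in whole L1. Taking 100 rows gives 100 by construction, and taking more rows than the rule did keeps every member by construction. Both are among the 173 combinations, and neither tests stability. For whole L1 against embryo, the 60 lower became 39 without the HiSeq X-ten libraries, and the 3 higher became 9 with RLE, 6 with library totals, 10 with DESeq2, 6 with unsorted libraries only, 1 with the compared groups only and 5 without the HiSeq X-ten libraries. For whole L3, the 11 higher became 18 with DESeq2 and 20 with the compared groups only. For whole L3 against L1, library totals gave 34 lower and 16 higher. For dissociated L3 against L1, the lower became 10 with the compared groups only and 11 without the HiSeq X-ten libraries, and the higher became 10 without them. For dissociated L1 against embryo, DESeq2 called 1 higher. For dissociated against whole animals, DESeq2 called 1 lower in embryos and 67 lower in L1, and the compared groups alone called 0 lower and 0 higher in L1. The member higher in L1 was also lost with library totals and without the HiSeq X-ten libraries (0 each), and L3 had 2 higher with unsorted libraries and 3 with the compared groups only. The stage difference in the dissociation effect passed in 20 (totals) and 62 (DESeq2) members for L3, and in 30 (DESeq2) and 14 (unsorted libraries) for L1. The cause of these shifts was not tested. Leaving out single libraries gave 36 to 66 lower and 0 to 4 higher in whole L1, 42 to 53 lower and 3 to 10 higher in whole L3, 11 to 16 lower and 17 to 22 higher in whole L3 against L1, 85 to 112 lower and 0 to 1 higher in dissociated L1, 106 to 130 lower in dissociated L3, 9 to 14 lower and 0 to 19 higher in dissociated L3 against L1, 2 to 42 lower and 0 to 1 higher for dissociation in L1, 69 to 80 lower and 0 to 1 higher for dissociation in L3, and 4 to 30 and 0 to 24 for the stage differences in L3 and L1. With members at 0 in every larval library set to their bound, the medians were -0.90 in whole L1 and -0.79 in whole L3, and unchanged in dissociated cells. Replicate numbers were not taken to pair whole and dissociated libraries, whose deviations from their group means correlated for the same number at 0.09 in L1 and at 0.18, 0.08 and 0.19 in L3, where whole replicates 1 and 3 correlated best with their own number and replicate 2 did not. Whole and dissociated embryos share only 1 number and were not checked. Same-numbered GFP-positive and GFP-negative libraries, which entered the fit but no tested contrast, correlated at 0.16 to 0.28. Embryonic GFP-positive and dissociated libraries correlated at 0.21 for replicate 1 and at 0.01 for replicate 2. Same-numbered GFP-negative and dissociated libraries of L1 correlated at 0.57. With a replicate block, 63 members were lower in whole L1, 70 in whole L3, 126 in dissociated L1 and 146 in dissociated L3. For these stage contrasts the block joined libraries of the same replicate number across stages, although a number was not known to mark a shared batch. For dissociation contrasts the block joined them within a stage. With 2 or 3 libraries per group and rows near 0 counts, members not called cannot be read as unchanged.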
